A study of Mus musculus with 9 samples.

Results

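The 10 genes described here are the cadherins and transcription factors by which epithelial–mesenchymal transition is usually read, together with vimentin: Cdh1, Cdh2, Cdh3, Snai1, Snai2, Twist1, Twist2, Zeb1, Zeb2 and Vim. They were taken by symbol from 22609 genes listed in the count tables, and all 10 were among the 13366 genes with enough counts to be tested. RNA-seq was performed on tumors grown from 4T1 cells, a mouse mammary carcinoma line used as a model of triple-negative breast cancer (TNBC), implanted in the mammary fat pad of mice of the BALB/c strain. There were 3 groups with 3 libraries each. In the LFD group, the mice ate a diet with 10% of its calories from fat and received vehicle (hydroxypropyl cellulose). In the HFD group, they ate a diet with 60% of its calories from fat and received the same vehicle. In the HFD + EC359 group, they ate the 60% diet and received EC359, an inhibitor of the leukemia inhibitory factor receptor (LIFR), at 5 mg/kg intraperitoneally on 5 days per week. Each diet began 6 weeks before 500000 cells were injected and went on until the end, and treatment began once tumors had formed. HFD against LFD addresses the effect of the diet on the tumor, and HFD + EC359 against HFD addresses the effect of blocking LIFR under that diet.

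Epithelial cells hold together through E-cadherin (Cdh1) and, in basal layers, P-cadherin (Cdh3), which bind their like on the neighboring cell and are anchored to actin through catenins. In epithelial–mesenchymal transition, the zinc finger factors Snai1, Snai2, Zeb1 and Zeb2 bind E-box sequences and repress Cdh1, the basic helix-loop-helix factors Twist1 and Twist2 act with them, and N-cadherin (Cdh2) and the intermediate filament vimentin (Vim) mark the mesenchymal state. Fibroblasts, endothelial cells and macrophages of the tumor stroma also make Vim, Zeb1, Zeb2 and Twist factors, so a whole tumor holds RNA of these genes from several cell types.

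The authors deposited unnormalized expected counts of the read pairs of each gene, and the libraries held 5085268 to 9750959 counts. They were scaled with edgeR's TMM factors to CPM (counts divided by the scaled library total) and, where different genes are compared, to FPKM (CPM per kilobase of exon). A true level of up to 3 counts can leave a gene at 0, which is 0.308 to 0.590 CPM, for counting error alone. Nothing in the labels says which animals the libraries came from, so the p-values measure the spread between these samples. That spread was small. For pairs of replicates, chi-square values averaged over genes lay at 1.41 to 1.53 in HFD and 1.43 to 1.57 in HFD + EC359. In LFD they lay at 1.36 for replicates 2 and 3, and at 2.54 and 3.10 for pairs with replicate 1. Pure counting noise would give about 1. How far the p-values hold across animals was not tested. In such bulk tumors, fewer cells of a type and less RNA per cell cannot be told apart. Genes of low GC content read higher relative to genes of high GC content in the HFD libraries (0.10 to 0.16 on the log2 scale) and in the HFD + EC359 libraries (0.25 to 0.30) than in the LFD libraries (-0.54 to -0.32), and LFD replicate 1 lay farthest out. Where this trend or 1 library decided a call of the 10 genes, the value without it is given. Values of all other genes are given with the trend in them, and small changes among them may depend on it. With the trend with GC content and length removed, 5719 of all tested genes differed between HFD and LFD, against 6926 with it.

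RefSeq's promoter windows (GRCm38.p6, 250 bases before to 50 after a transcript start) were at hand for 5 of the 10 genes, namely Snai1, Twist1, Twist2, Zeb2 and Vim. The 250 bases before the start are shown for Snai1, whose product binds the E-box CAGGTG. Snai1 was the only one of the 5 with that motif. The same stretch is shown for Twist1 and Vim, which both fell with the HFD. For Twist1 that call was lost once the GC and length trend was removed. Capitals mark CAGGTG or its reverse complement CACCTG, and TATAA or its reverse complement TTATA, which overlap in Vim.
Snai1, plus strand of chr2:167537945-167538194: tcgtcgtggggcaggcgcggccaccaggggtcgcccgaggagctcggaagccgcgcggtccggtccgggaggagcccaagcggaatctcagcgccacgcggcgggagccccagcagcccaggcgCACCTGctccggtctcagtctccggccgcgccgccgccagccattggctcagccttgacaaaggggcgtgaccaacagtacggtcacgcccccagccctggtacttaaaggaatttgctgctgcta
Twist1, plus strand of chr12:33957421-33957670: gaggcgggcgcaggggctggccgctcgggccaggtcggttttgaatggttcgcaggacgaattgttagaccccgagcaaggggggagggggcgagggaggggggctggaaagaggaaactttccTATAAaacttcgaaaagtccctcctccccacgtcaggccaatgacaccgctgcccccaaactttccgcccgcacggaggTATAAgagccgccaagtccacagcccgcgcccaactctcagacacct
Vim, plus strand of chr2:13574061-13574310: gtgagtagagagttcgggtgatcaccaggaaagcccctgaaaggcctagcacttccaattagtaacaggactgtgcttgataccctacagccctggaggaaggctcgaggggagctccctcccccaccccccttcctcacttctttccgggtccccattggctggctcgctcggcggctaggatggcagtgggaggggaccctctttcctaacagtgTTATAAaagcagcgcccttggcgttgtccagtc
The CACCTG of Snai1 lay 126 bases before its start. CAGGTG or CACCTG occurs in 20.2% of 32851 such windows of 27025 genes, and the looser E-box CANNTG, which includes it, in 72.3%. Among the 8 windows of the 5 genes (Zeb2 has 4 starts), CANNTG occurred in that of Snai1 alone. TATAA or TTATA occurs in 24.9% of all windows. It began 126 and 47 bases before the start of Twist1 and 33 bases before the start of Vim. Some of the 4 windows of Zeb2 also held it. There it began 218 bases before and 45 bases after the start in a window, and 244 before and 19 after in another. These are matches of letters and not measured binding sites.

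With the HFD, Cdh1 and Cdh3 fell, Twist1 and Vim fell by smaller amounts, and Zeb1 and Zeb2 rose. The fall of Twist1 no longer passed the test once the trend with GC content and length was removed (log2 fold change -0.084). At an adjusted p under 0.05 by edgeR's quasi-likelihood test, 6 of the 10 genes differed between HFD and LFD, 2 higher and 4 lower, where 51.8% of all tested genes did (26.0% higher and 25.8% lower). Between HFD + EC359 and HFD, 4 of the 10 differed, 2 higher and 2 lower, against 26.5% of all tested genes (12.7% higher and 13.8% lower). Between HFD + EC359 and LFD, 6 of the 10 differed, 2 higher and 4 lower, against 58.3% (29.2% higher and 29.1% lower). These shares are near those of all genes. Changes of more than 2-fold with an adjusted p below 0.01 were seen in Cdh1 and Cdh3 alone, in the first 2 comparisons, where 5.69% and 3.46% of all tested genes had such a change. None of the 10 had one between HFD + EC359 and LFD (5.09% of all genes). The compared groups did not overlap for 6, 6 and 5 of the 10 genes in the 3 comparisons, against 57.1%, 41.3% and 62.9% of all tested genes. The 3 comparisons share libraries, so their values stand side by side and are not independent of each other.

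**Figure D1:**
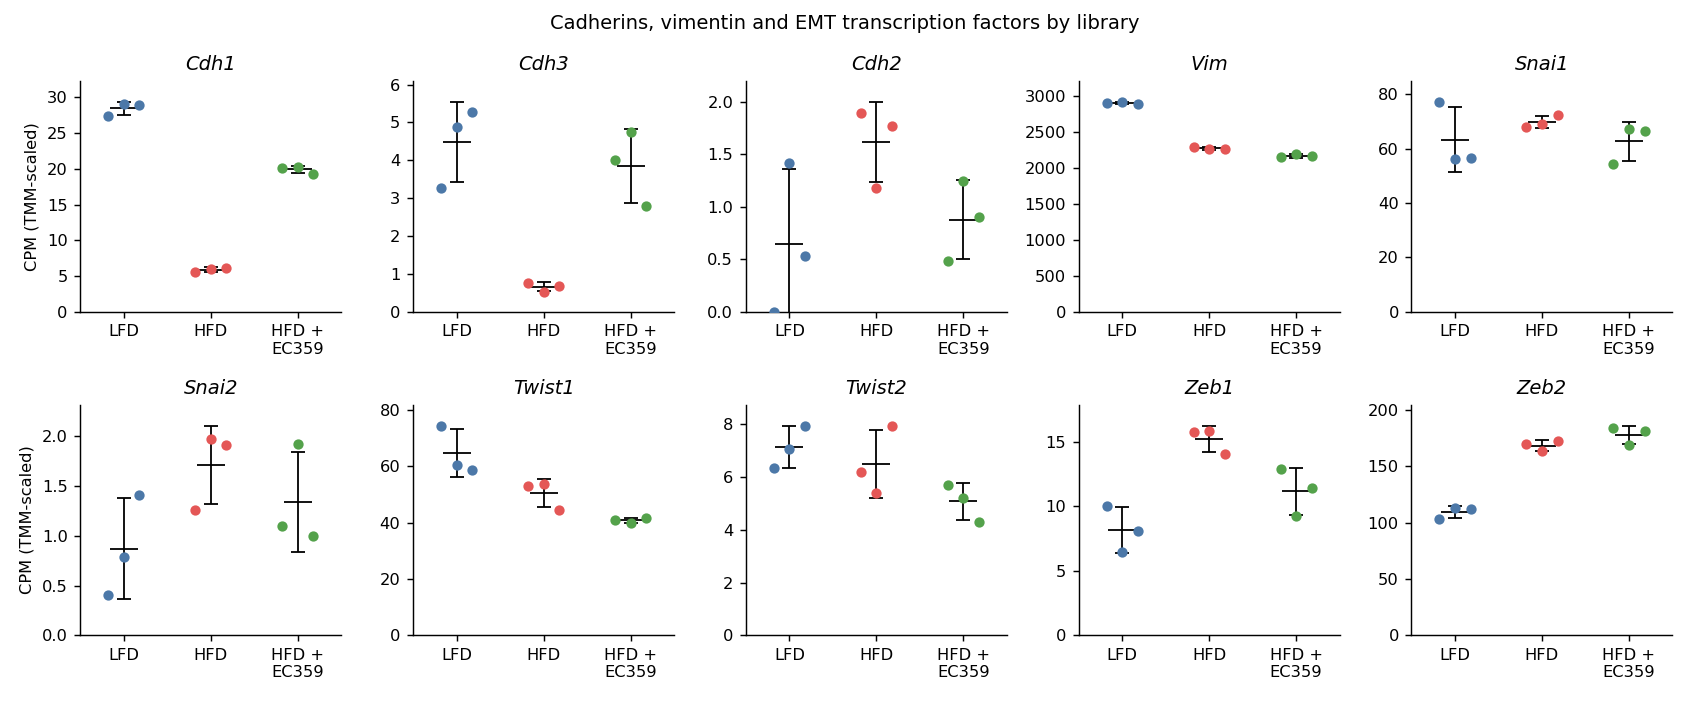
TMM-scaled CPM (vertical axes, each from 0) of the 10 genes in the LFD, HFD and HFD + EC359 groups. Points are libraries, and the long mark and bar give the mean and SD of 3 libraries (the lower bar of Cdh2 in LFD runs past 0 and is cut there). Cdh1 and Cdh3 are lowest in all 3 HFD libraries, while Zeb2 is lowest in all 3 LFD libraries.

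E-cadherin was the gene with the clearest change. Cdh1 (mm9, chr8:109127268-109194146, plus strand) had 27.4, 29.05 and 28.9 CPM in the LFD libraries, 5.55, 6.03 and 6.13 CPM in the HFD libraries, and 20.1, 20.3 and 19.3 CPM in the HFD + EC359 libraries. The 3 groups did not overlap, with HFD lowest and HFD + EC359 between. The means were 28.45 ± 0.904, 5.90 ± 0.311 and 19.9 ± 0.542 CPM (SD, n = 3). Cdh1 was 4.82-fold lower in HFD than in LFD (log2 fold change -2.27, SE 0.125, edgeR adjusted p = 3.519e-16), and only 1.58% of tested genes changed by more. With EC359 it was 3.37-fold higher than in HFD (1.75 on the log2 scale, SE 0.125, edgeR adjusted p = 3.755e-13), a change that 1.73% of tested genes exceeded. It remained below the LFD level (log2 fold change -0.52, SE 0.096, edgeR adjusted p = 2.362e-05). Each HFD library still held 44 to 46 Cdh1 counts, far above the floor of 3.

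P-cadherin followed the same course at a lower level. Cdh3 (mm9, chr8:109034791-109080808, plus strand) had 16, 31 and 30 counts in the LFD libraries, 6, 4 and 5 in the HFD libraries, and 33, 42 and 28 in the HFD + EC359 libraries. The HFD libraries, just above the floor, lay below all 6 others, and the other groups overlapped. The means were 4.48 ± 1.06, 0.654 ± 0.119 and 3.85 ± 0.979 CPM (SD, n = 3). Cdh3 was 6.78-fold lower in HFD than in LFD (log2 fold change -2.76, SE 0.371, edgeR adjusted p = 1.926e-07) and 5.70-fold higher with EC359 than in HFD (2.51, SE 0.358, edgeR adjusted p = 1.616e-06). Between HFD + EC359 and LFD, the log2 difference was -0.25 (95% confidence interval -0.76 to 0.26, edgeR adjusted p = 0.4027). This interval includes the difference of -0.52 that Cdh1 had. Cdh3 and Cdh1 are neighbors on chromosome 8, on the same strand, with 46459 bases and no annotated gene between them. Over the 9 libraries in 3 groups, their log2 CPM values had a Pearson r of 0.967, as a description.

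N-cadherin was close to the limit of detection. Cdh2 (mm9, minus strand of chromosome 18) had 0, 9 and 3 counts in the LFD libraries, 15, 9 and 13 in the HFD libraries, and 4, 11 and 9 in the HFD + EC359 libraries. All 3 groups overlapped, and no comparison passed the test. The log2 fold change was 1.17 for HFD against LFD (95% confidence interval 0.076 to 2.27, edgeR adjusted p = 0.06763), and -0.86 for HFD + EC359 against HFD (-1.78 to 0.063, edgeR adjusted p = 0.1695). The first of these rested on single LFD libraries. It was 2.44 without LFD replicate 2, with 9 counts (edgeR adjusted p = 0.007148), and 0.69 without LFD replicate 1, with 0 counts (edgeR adjusted p = 0.2746). Per length, Cdh1 exceeded Cdh2 in every library with Cdh2 counts, by 21.6 and 57.5 times in 2 LFD libraries, by 3.09 to 5.38 times in HFD, and by 17.2 to 43.7 times in HFD + EC359. Cdh3 stood at 0.447 to 0.517 times Cdh2 in the HFD libraries and above it, at 3.62 to 11.6 times, in the others. The order of P- and N-cadherin thus differed between HFD and the other groups, at counts of 4 to 15 in HFD.

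**Figure D2:**
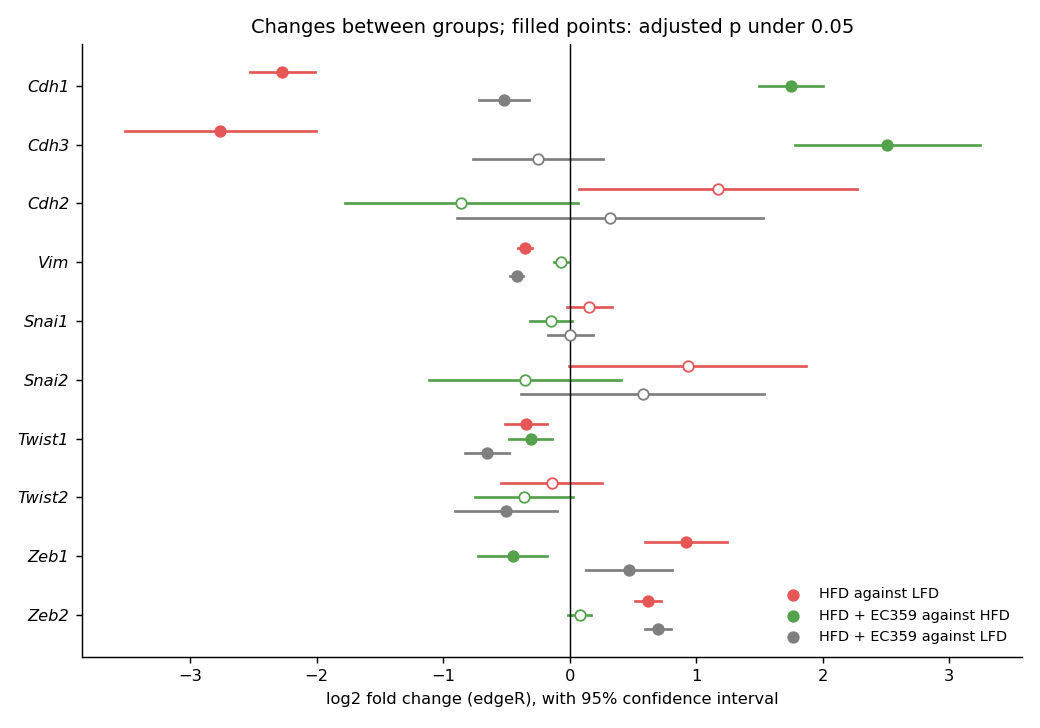
Log2 fold changes of the 10 genes (horizontal axis) with 95% confidence intervals from edgeR for the HFD against the LFD group (red), the EC359-treated group against HFD (green) and the EC359-treated group against LFD (gray). Filled points had an adjusted p under 0.05. Cdh1 (-2.27 and 1.75) and Cdh3 (-2.76 and 2.51) stand far from 0 in the first 2 comparisons, and the intervals of Cdh2 and Snai2 are wide.

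Among the repressors of Cdh1, both ZEB factors rose with the HFD, and they parted under EC359. Zeb1 (mm9, plus strand of chromosome 18) had 10.0, 6.44 and 8.11 CPM in the LFD libraries, 15.8, 15.9 and 14.0 CPM in the HFD libraries, and 12.9, 9.25 and 11.4 CPM in the HFD + EC359 libraries. HFD lay above the others, which overlapped. Zeb1 was 1.89-fold higher in HFD than in LFD (log2 fold change 0.92, SE 0.16, edgeR adjusted p = 1.381e-05). With EC359 it was lower than in HFD by the main test (log2 fold change -0.45, SE 0.135, edgeR adjusted p = 0.01181). This call was lost without HFD replicate 1 (-0.43, edgeR adjusted p = 0.05205), without HFD replicate 2 (-0.42, edgeR adjusted p = 0.05407) or without HFD + EC359 replicate 2 (-0.33, edgeR adjusted p = 0.09785). Zeb1 still exceeded its LFD level with EC359 (0.47, edgeR adjusted p = 0.01577). That call too was lost without LFD replicate 2 (0.30), without HFD + EC359 replicate 1 (0.37), or after removal of the GC and length trend (0.28).

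Zeb2 (mm9, chr2:44839154-44968799, minus strand) was the more abundant ZEB factor. It had 103, 113 and 112 CPM in the LFD libraries, 170, 164 and 172 CPM in the HFD libraries, and 184, 169 and 181 CPM in the HFD + EC359 libraries. LFD lay below all the others, and the HFD and HFD + EC359 libraries overlapped. Zeb2 was 1.53-fold higher in HFD than in LFD (log2 fold change 0.62, SE 0.050, edgeR adjusted p = 5.285e-12) and differed from HFD by 0.08 with EC359 (95% confidence interval -0.012 to 0.17, edgeR adjusted p = 0.2064). Against LFD, the HFD + EC359 group was higher by 0.70 (edgeR adjusted p = 1.042e-13). The exons of Zeb2 have a GC content of 40.1%. Once each library's trend with GC content and length was removed, its increase with the HFD was 0.22 and its increase in HFD + EC359 over LFD 0.18, both still past the threshold. Its exons overlap those of the microRNA gene Mir5129 on the same strand. Per length, Zeb2 exceeded Zeb1 in every library, by 5.90 to 10.0 times in LFD, 5.91 to 7.03 times in HFD and 8.20 to 10.45 times in HFD + EC359.

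The Snail factors did not pass the test in any comparison, though Snai1 did under some alternatives. Snai1 (mm9, chr2:167363727-167368311, plus strand) had 77.1, 56.2 and 56.6 CPM in the LFD libraries, 68.1, 69.0 and 72.4 CPM in the HFD libraries, and 54.5, 67.25 and 66.4 CPM in the HFD + EC359 libraries. LFD replicate 1 lay above all other libraries, and the remaining LFD libraries lay below all HFD libraries. The log2 fold change of HFD against LFD was 0.16 (95% confidence interval -0.023 to 0.33, edgeR adjusted p = 0.1371). It was 0.31 without LFD replicate 1 (edgeR adjusted p = 0.0004692) and 0.43 after removal of the trend with GC content and length (edgeR adjusted p = 2.827e-05), for exons with a GC content of 59.6%. The HFD libraries lay above all HFD + EC359 libraries, and the log2 difference of -0.15 (95% confidence interval -0.32 to 0.015) had an edgeR adjusted p of 0.1805. Without LFD replicate 1, which enters that test through the shared spread, the adjusted p was 0.04977. Between HFD + EC359 and LFD the difference was 0.005 (95% confidence interval -0.17 to 0.18), and 0.35 once the trend with GC content and length was removed (edgeR adjusted p = 0.0002484).

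Snai2 (mm9, chr16:14705952-14709475, plus strand) was as sparse as Cdh2. It had 2, 5 and 8 counts in the LFD libraries, 10, 15 and 14 in the HFD libraries, and 9, 17 and 10 in the HFD + EC359 libraries. In CPM, the highest LFD library (1.41) reached above the lowest HFD library (1.26). The log2 fold change was 0.93 for HFD against LFD (95% confidence interval -0.0063 to 1.87, edgeR adjusted p = 0.08981) and -0.35 for HFD + EC359 against HFD (-1.11 to 0.40, edgeR adjusted p = 0.5365). Without LFD replicate 3 the first of these was 1.43 (edgeR adjusted p = 0.0384). At such counts the data cannot show whether Snai2 moved.

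Twist1 fell from LFD to HFD and again from HFD to HFD + EC359. Twist1 (mm9, chr12:34642536-34644696, plus strand) had 74.5, 60.6 and 58.9 CPM in the LFD libraries, 53.2, 53.7 and 44.7 CPM in the HFD libraries, and 41.0, 39.95 and 41.6 CPM in the HFD + EC359 libraries. No groups overlapped, and LFD replicate 1 was the highest library. The log2 fold change was -0.34 for HFD against LFD (SE 0.083, edgeR adjusted p = 0.000797), -0.31 for HFD + EC359 against HFD (SE 0.083, edgeR adjusted p = 0.004965) and -0.65 for HFD + EC359 against LFD (edgeR adjusted p = 4.787e-08). The first of these calls was lost when the GC and length trend was removed (-0.084, edgeR adjusted p = 0.397), for exons with a GC content of 59.2%, and under that setting the last was -0.32.

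Twist2 (mm9, chr1:93698054-93744604, plus strand) had 6.34, 7.07 and 7.93 CPM in the LFD libraries, 6.18, 5.37 and 7.91 CPM in the HFD libraries, and 5.70, 5.19 and 4.30 CPM in the HFD + EC359 libraries. HFD overlapped both other groups, and neither comparison with HFD passed the test (-0.14, 95% confidence interval -0.54 to 0.25, and -0.36, -0.75 to 0.023). HFD + EC359 lay below LFD in all libraries (log2 fold change -0.51, edgeR adjusted p = 0.02907), and this call was lost by DESeq2 (-0.51), with library totals (-0.43), after removal of the GC trend (-0.23), and without LFD replicate 2 (-0.52), LFD replicate 3 (-0.42) or HFD + EC359 replicate 3 (-0.40).

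Vimentin, by far the most abundant of the 10, did not rise when E-cadherin fell. Vim (mm9, chr2:13495938-13504453, plus strand) had 2897, 2916 and 2883 CPM in the LFD libraries, 2296, 2256 and 2262 CPM in the HFD libraries, and 2147, 2192 and 2161 CPM in the HFD + EC359 libraries. The 3 groups did not overlap, and HFD + EC359 was lowest. Vim was 1.28-fold lower in HFD than in LFD (edgeR adjusted p = 6.928e-13) and 1.34-fold lower in HFD + EC359 than in LFD (edgeR adjusted p = 5.337e-15). The difference of -0.068 between HFD + EC359 and HFD (SE 0.026) missed the threshold (edgeR adjusted p = 0.05164). It passed by DESeq2 (adjusted p = 0.04278), with RLE factors (edgeR adjusted p = 0.03544), with the 6 libraries alone (edgeR adjusted p = 0.0002345), and without LFD replicate 1 (edgeR adjusted p = 0.0003573) or LFD replicate 2 (edgeR adjusted p = 0.02025). The ratio of Vim to Cdh1 per length, often used as an index of the mesenchymal state, was 240 to 254 in LFD, 887.5 to 995.7 in HFD and 257 to 269 in HFD + EC359. All of the rise of this ratio in HFD lay on the side of Cdh1, since Vim fell.

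Per length, the order of the genes in LFD was Vim (1581 FPKM), Snai1 (39.9), Twist1 (39.7), Zeb2 (12.0), Cdh1 (6.45), Twist2 (5.42), Zeb1 (1.57), Cdh3 (1.12), Snai2 (0.432) and Cdh2 (0.139). The libraries of Snai1 and Twist1 overlapped, as did those of Zeb1 and Cdh3 and those of Snai2 and Cdh2. In HFD, Cdh1 (1.34 FPKM) came after Twist2 (4.94) and Zeb1 (2.92), and Cdh3 (0.164) came last, after Snai2 (0.851) and Cdh2 (0.347). No neighbors overlapped in HFD. In HFD + EC359, Cdh1 (4.51 FPKM) was again above Twist2 (3.86) and Zeb1 (2.14), and Cdh3 (0.963) overlapped with Snai2 (0.665). Vim (1239 and 1181 FPKM), Snai1 (44.0 and 39.5), Twist1 (31.0 and 25.1) and Zeb2 (18.5 and 19.5) kept the first 4 places in HFD and HFD + EC359. Cdh1 thus lay above Zeb1 in LFD and HFD + EC359 and below it in HFD.

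The genes that epithelial–mesenchymal transition silences moved with Cdh1. Of a list of epithelial genes (keratins, claudins, desmosome and tight junction genes), 27 were tested, and with the HFD 19 fell and 2 rose. The median log2 fold change of the list was -1.03, where that of all tested genes was 0.007. With EC359, 18 of the 27 rose and 1 fell, with a median of 0.81 against 0.006 over all genes. Of 12 tested regulators that keep cells epithelial, 11 fell and 1 rose with the HFD (median -1.80), and 9 rose and 1 fell with EC359 (median 1.43). These lists were chosen with results of these data known and are given as descriptions. With only genes of at least 10 counts in every library, 11 epithelial genes and 5 epithelial regulators rose with EC359. In that setting 7 regulators fell with the HFD. This filter drops genes of low counts, so fewer genes of the lists were tested under it. Over the alternatives without a single library left out, 14 to 22 epithelial genes fell with the HFD.

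Within those lists, Krt14, a basal keratin, fell most with the HFD, from 762 ± 68.8 to 40.6 ± 0.271 CPM (SD, n = 3, log2 fold change -4.23, edgeR adjusted p = 1.22e-33), and reached 237 ± 2.99 CPM with EC359 (2.54, edgeR adjusted p = 8.167e-27). Ovol1, a factor that represses Zeb1 in epithelia, fell by 2.99 on the log2 scale with the HFD (edgeR adjusted p = 3.168e-09), from 6.30 to 0.782 CPM. Ehf, an epithelial ETS factor, rose by 2.48 with EC359 (edgeR adjusted p = 3.963e-05), from 0.481 to 2.74 CPM. Both were near the floor in HFD. The genes called in the other direction were Gata3, the luminal factor, which rose with the HFD (0.45, edgeR adjusted p = 9.431e-11) and fell with EC359 (-0.13, edgeR adjusted p = 0.01311), the junction scaffold Tjp1 (0.51, edgeR adjusted p = 2.015e-11) and the surface protein gene Cd24a (0.43, edgeR adjusted p = 1.215e-06), which rose with the HFD, and the desmosome gene Pkp2, which fell with EC359 (-1.17, edgeR adjusted p = 0.04501). Klf5, an epithelial factor, fell with the HFD (-1.18, edgeR adjusted p = 5.82e-13) and did not pass the test with EC359 (-0.16, edgeR adjusted p = 0.2344).

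The simple keratins Krt8 and Krt18, which carcinoma cells make in quantity, changed far less than Cdh1. Krt8 had 599 ± 13.8 CPM in LFD, 408 ± 5.35 in HFD and 442.5 ± 7.68 in HFD + EC359 (SD, n = 3). It fell by 0.55 on the log2 scale with the HFD (edgeR adjusted p = 7.048e-15) and rose by 0.12 with EC359 (edgeR adjusted p = 0.01024). Krt18 fell by 0.73 with the HFD (edgeR adjusted p = 5.919e-17) and differed by 0.055 with EC359 (edgeR adjusted p = 0.3047). Per length, the ratio of Cdh1 to Krt8 was 0.0192 to 0.0197 in LFD, 0.00560 to 0.00608 in HFD and 0.0179 to 0.0189 in HFD + EC359, and the 3 groups did not overlap. The ratio of Cdh1 to Krt14 was 0.0123 to 0.0155 in LFD, 0.0514 to 0.0564 in HFD and 0.0305 to 0.0324 in HFD + EC359, so Krt14 moved more than Cdh1 in both steps.

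**Figure D3:**
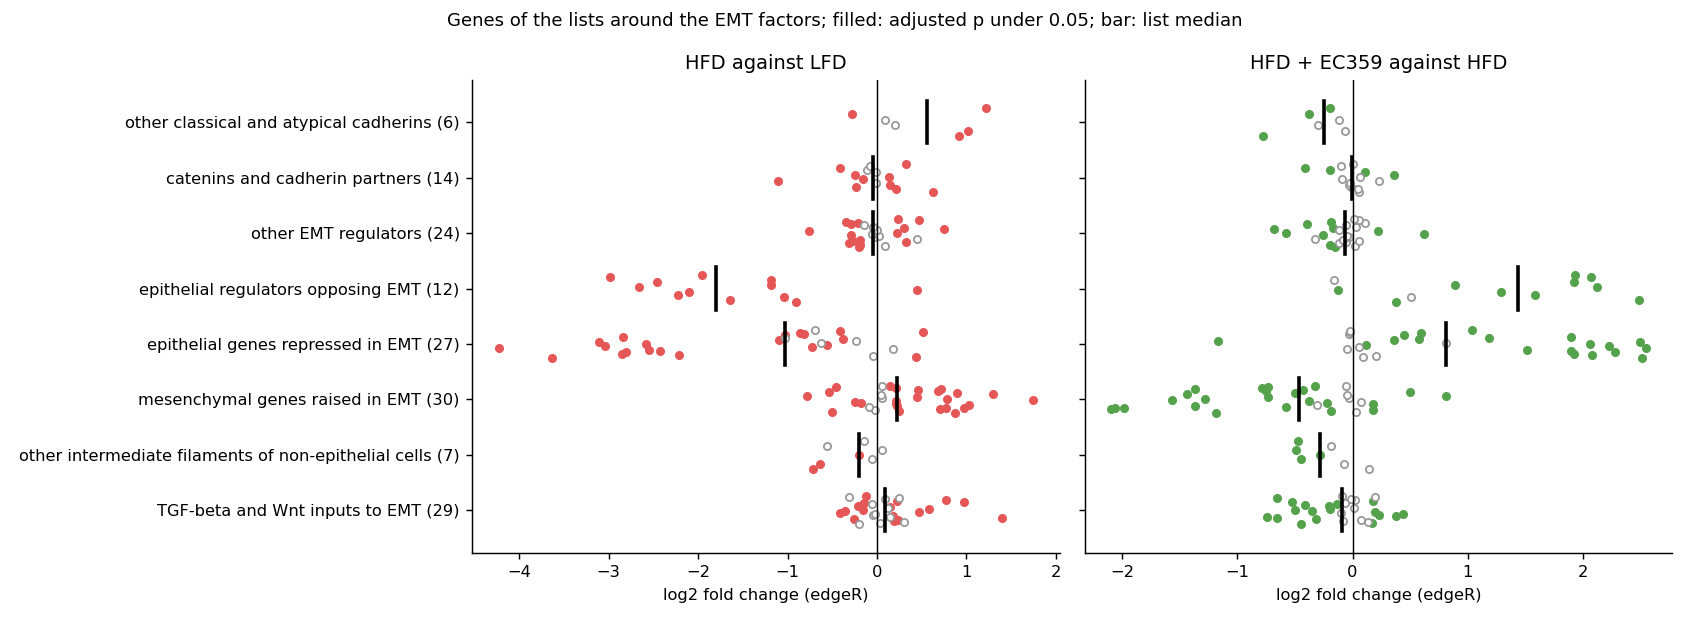
Log2 fold changes (horizontal axes) of the tested genes of 8 lists, HFD over LFD on the left and HFD + EC359 over HFD on the right. Each point is a gene, filled where its adjusted p was under 0.05, black bars are list medians, and the number of genes stands beside each list. The epithelial lists have their medians at -1.80 and -1.03 in the first comparison and at 1.43 and 0.81 in the second.

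Markers of the cells that carry E- and P-cadherin moved with them. The summed level of 10 markers of mammary carcinoma epithelium was 1809 to 1944 CPM in LFD, 748 to 753 in HFD and 986 to 1021 in HFD + EC359. Krt14 alone made up 762, 40.6 and 237 CPM of these sums on average, and most of the rest was Krt8 and Krt18. All 6 tested markers of this list fell with the HFD, and 4 rose and none fell with EC359. These 6 are also on the epithelial lists above, so they add no separate genes. Cldn7 had at most 3 counts in every library. The 11 listed markers of epidermis, which also expresses Cdh1 and Cdh3, summed to 238 to 256 CPM in LFD, 121 to 129 in HFD and 204 to 212 in HFD + EC359. Of the 10 tested, 8 fell with the HFD, and 9 rose with EC359. Among the most abundant of them, Krt10 had 52.5 ± 5.61, 54.6 ± 4.30 and 52.8 ± 1.21 CPM (SD, n = 3) in LFD, HFD and HFD + EC359, and Krt1 had 81.2 ± 5.80, 41.05 ± 3.67 and 57.3 ± 2.77 CPM. The part of either cell type in the change of Cdh1 and Cdh3 was not tested. By likeness of log2 CPM over the 9 libraries, the 3 genes closest to Cdh1 were Coch (Pearson r 0.999), Trim29 (0.997) and the desmosomal cadherin Dsg1a (0.996), itself on the epidermis list. Those closest to Cdh3 were Fam167a (0.985), S100a4 (0.984) and Timp2 (0.984). S100a4 is on the list of mesenchymal genes given below. It fell with the HFD (-0.54, edgeR adjusted p = 6.878e-11) and rose with EC359 (0.50, edgeR adjusted p = 3.086e-10).

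Markers of stromal cells that make the mesenchymal members moved too. The fibroblast markers, led by Col1a1 and Col1a2, summed to 8682 to 10212 CPM in LFD, 14128 to 14885 in HFD and 4513 to 4614 in HFD + EC359. Col1a1 alone had means of 4212, 6870 and 1613 CPM. Of the 12 markers, 11 rose and 1 fell with the HFD, and 9 fell and 1 rose with EC359. Between HFD + EC359 and LFD, 3 of the 12 were higher and 4 lower, with a median log2 fold change of 0.049, although the sum was lower. All 10 endothelial markers rose with the HFD, with sums of 459 to 492 CPM in LFD, 731 to 767 in HFD and 637 to 656 in HFD + EC359. Pericyte and smooth muscle markers summed to 558 to 570, 678 to 689 and 587 to 594 CPM. Macrophage markers summed to 1758 to 1786, 1634 to 1657 and 2027 to 2062 CPM. Although this sum was lowest in HFD, 6 of the 10 macrophage markers rose and 2 fell with the HFD (median 0.18), and 9 rose and none fell with EC359. Zeb1 was highest in HFD, as were the sums of the fibroblast, endothelial and pericyte markers. Zeb2 was lowest in LFD, as were the endothelial and pericyte sums, and Vim followed none of the 4 sums. The part of these cells in the levels of Zeb1, Zeb2, Twist1 and Vim was not tested. The closest genes by likeness were Fam96b (0.977), Ldb2 (0.975) and Rest (0.962) for Zeb1, and Dnajb9 (0.996), Xist (0.996) and Rpl19 (0.995) for Zeb2. They were Sepw1 (0.994), Mex3c (0.9915) and Srsf9 (0.990) for Twist1, and Tnfrsf12a (0.994), Fbln2 (0.994) and Cd163 (0.994) for Vim. Cd163, on the macrophage list, fell with the HFD (-0.52, edgeR adjusted p = 1.597e-12), unlike most of that list. Fbln2 was the 1 marker of the fibroblast list that fell with the HFD (-0.47, edgeR adjusted p = 2.552e-14).

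**Figure D4:**
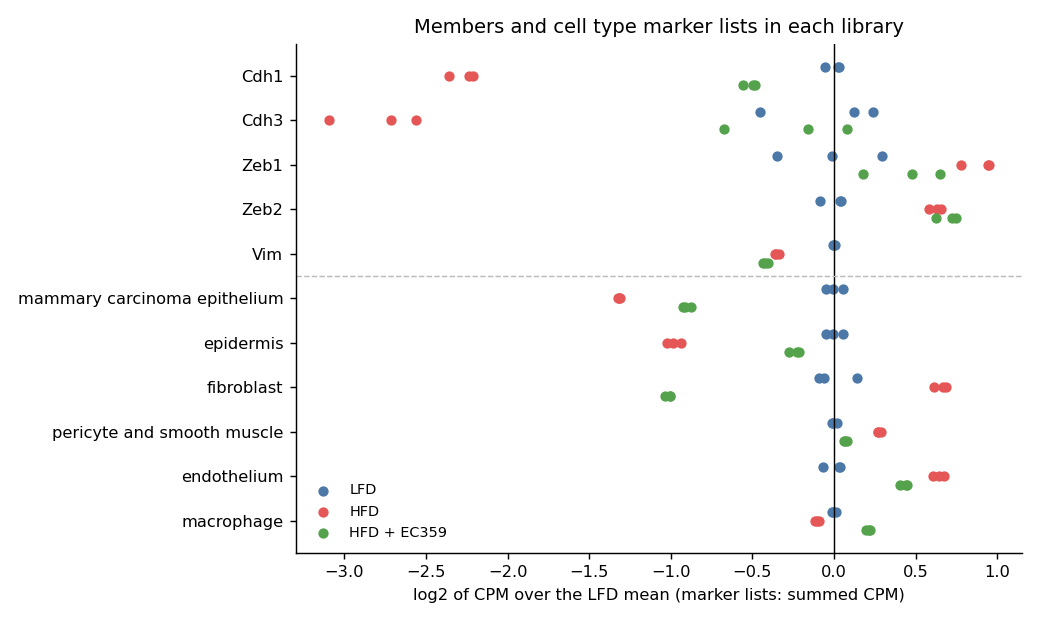
Log2 of the CPM of 5 genes (above the dashed line) and of the summed CPM of 6 cell type marker lists (below it) over the mean of the LFD libraries, with 1 point per library. Cdh1 and Cdh3 lie more than 2 units below LFD in HFD, and the carcinoma and epidermis sums move the same way over shorter distances. The fibroblast sum, led by Col1a1 and Col1a2, is above LFD in HFD and below it in HFD + EC359.

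The other mesenchymal genes did not move as one with Vim. Of 30 such genes, all tested, 19 rose and 6 fell with the HFD (median log2 fold change 0.22). With EC359, 4 rose and 20 fell (median -0.46). Some of them, Col1a1 and Col1a2 included, are also fibroblast markers above, so these lists are not separate. Lox, a collagen crosslinker, rose most with the HFD (1.75, edgeR adjusted p = 9.992e-17). Col1a1 rose with the HFD (0.71, edgeR adjusted p = 7.048e-15) and fell most with EC359 (-2.09, edgeR adjusted p = 1.368e-27). Fibronectin (Fn1) rose in both steps (0.22, edgeR adjusted p = 2.923e-08, and 0.18, edgeR adjusted p = 3.216e-06), and the protease Mmp3 fell with the HFD (-0.79, edgeR adjusted p = 1.059e-14) and rose with EC359 (0.81, edgeR adjusted p = 2.896e-15). Of 7 tested intermediate filament genes other than keratins and Vim, 3 fell and none rose with the HFD. With EC359, 4 fell and none rose. This list includes the nuclear lamins Lmna, Lmnb1 and Lmnb2, which epithelial cells also make. Of these lamins, Lmna and Lmnb2 fell with the HFD, and Lmnb1 and Lmnb2 fell with EC359. The muscle filament desmin (Des) fell by 0.71 with the HFD (edgeR adjusted p = 2.017e-08), and lamin A (Lmna), the most abundant, fell by 0.64 (edgeR adjusted p = 9.737e-17).

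The other cadherins and the catenins moved in both directions. Of 20 other cadherins, 6 were tested, of which 3 rose and 1 fell with the HFD, and 3 fell and none rose with EC359. The endothelial Cdh5 rose from 52.45 ± 0.217 to 122.6 ± 6.11 CPM with the HFD (SD, n = 3, log2 fold change 1.22, edgeR adjusted p = 8.577e-18) and had 107 ± 3.21 CPM with EC359 (-0.19, edgeR adjusted p = 0.00287). Cdh11, a cadherin of fibroblasts and bone cells, fell by 0.77 with EC359 (edgeR adjusted p = 0.0001243). Of 14 tested catenins and partners, 5 rose and 5 fell with the HFD (median -0.042), and 2 rose and 2 fell with EC359 (median -0.0056). Beta-catenin (Ctnnb1), which links cadherins to actin, had 853 ± 53.95, 943.5 ± 3.46 and 925 ± 24.3 CPM in LFD, HFD and HFD + EC359 and rose with the HFD (0.14, edgeR adjusted p = 0.001106). The p120 catenin gene Ctnnd1 differed by -0.0092 with the HFD (edgeR adjusted p = 0.836) and by -0.023 with EC359 (edgeR adjusted p = 0.6669). Plakoglobin (Jup), shared by adherens junctions and desmosomes, fell with the HFD (-0.25, edgeR adjusted p = 7.745e-05) and rose most of this list with EC359 (0.36, edgeR adjusted p = 2.371e-07), as Cdh1 did over a wider range.

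Of 24 other tested regulators of epithelial–mesenchymal transition, 6 rose and 10 fell with the HFD (median -0.047), and 2 rose and 8 fell with EC359 (median -0.069). Prrx1, a mesenchymal homeobox factor, rose most with the HFD (0.75, edgeR adjusted p = 1.273e-07) and fell most with EC359 (-0.68, edgeR adjusted p = 3.678e-07). Klf4, which keeps Cdh1 expressed in mammary epithelium, fell most with the HFD (-0.76, edgeR adjusted p = 5.06e-10). Sox4, the most abundant per length, fell in both steps (-0.30, edgeR adjusted p = 4.485e-07, and -0.39, edgeR adjusted p = 5.783e-09), as Twist1 did with the GC trend left in. Id2, an inhibitor of helix-loop-helix factors, rose with EC359 (0.62, edgeR adjusted p = 0.001386).

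Another list held ligands, receptors, mediators and inhibitors of pathways that feed these factors, mainly TGF-beta and Wnt. Of 29 tested, 10 rose and 8 fell with the HFD (median 0.089). With EC359, 6 rose and 13 fell (median -0.088). The list mixes activating and inhibiting genes, so these counts give no direction of pathway activity. Lef1, the Wnt effector, rose most with the HFD (1.40, edgeR adjusted p = 6.11e-10). Oncostatin M (Osm), a cytokine related to LIF, fell most with the HFD (-0.42, edgeR adjusted p = 0.0319). Lif, the ligand of the receptor that EC359 inhibits, had 16.8 ± 3.13, 18.3 ± 1.77 and 11 ± 1.25 CPM in LFD, HFD and HFD + EC359 (SD, n = 3). It fell most of them with EC359 (-0.74, edgeR adjusted p = 3.707e-05). The gene of that receptor, Lifr, rose with the HFD (0.18, edgeR adjusted p = 0.0159) and with EC359 (0.38, edgeR adjusted p = 2.073e-06). Notch1, a receptor upstream of Snai factors, rose most with EC359 (0.44, edgeR adjusted p = 3.443e-11). Tgfb1, the most abundant of them per length, fell with the HFD (-0.15, edgeR adjusted p = 0.007053) and did not pass the test with EC359 (-0.065, edgeR adjusted p = 0.3018). Stat3, which LIFR activates, differed by -0.052 with the HFD (edgeR adjusted p = 0.2588) and fell by 0.13 with EC359 (edgeR adjusted p = 0.007538).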

How the data were processed

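RNA-seq of 4T1 tumors (9 libraries, 3 each from LFD, HFD and HFD + EC359) was analyzed, with 5085268 to 9750959 counts per library. The authors deposited expected counts of read pairs per gene, without normalization, for the mouse genome mm9. Per the file headers they were made with featureCounts 1.5.0-p1 on reverse-stranded libraries, and pairs over several genes or alignments were split into fractions. The submitters' processing notes name HISAT2 2.1.0 as aligner, while the methods of the study name TopHat2, HTSeq and DESeq. The effect of these choices on the counts was not tested.

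The values were rounded to whole numbers, filtered with filterByExpr by group (13366 of 22609 genes left), scaled with TMM factors and fitted with edgeR 4.0.16 in R 4.3.3 as 1 quasi-likelihood model of the 3 groups, with Benjamini-Hochberg adjustment over all tested genes. The smallest two-sided p of an exact permutation test on 1 gene is 0.1 with 3 libraries in each group. The alternatives were DESeq2 1.42.0, RLE factors, library totals, other count filters, the 6 libraries of a comparison alone, a stricter threshold, removal of the loess trend (span 0.3) of each library with GC content and length, a replicate block, and each library left out. The steps were tested on simulated data.

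The genes and lists were chosen with earlier results of these data known. Named genes were the 10 genes, from each list the called genes with the largest and smallest change (mean of at least 1 CPM) and the 2 with the highest level per length, the 3 genes most alike to a gene in log2 CPM (prior count 2), and the 2 most abundant markers of a cell type. Cldn7, Lifr, and Krt14 and Krt8 in ratios, were chosen after their values were seen. RefSeq promoter windows are of GRCm38.p6, another build than the counts.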

Additional observations from a re-analysis of the deposited data

How the results depend on the processing

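Cdh1 kept its direction and its side of the threshold in every comparison under the alternatives run except the stricter threshold, under which its difference of -0.52 between HFD + EC359 and LFD did not pass, with log2 fold changes of -2.30 to -2.23 for HFD against LFD and 1.70 to 1.78 for HFD + EC359 against HFD, and Cdh3 did so in every alternative that tested it. With the stricter threshold (over 2-fold, adjusted p below 0.01), 2, 2 and 0 of the 10 genes passed in the comparisons of HFD with LFD, of HFD + EC359 with HFD and of HFD + EC359 with LFD, and 761, 462 and 680 of all genes, where 6926, 3545 and 7786 passed at an adjusted p under 0.05. Leaving out each library in turn gave 6 to 7, 3 to 6 and 4 to 6 of the 10 genes. With library totals in place of TMM factors, 2098 genes were higher and 1494 lower with EC359 than in HFD, against 1696 and 1849.

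After removal of the GC and length trend, Twist2 in HFD against LFD turned to 0.083 and Zeb2 in HFD + EC359 against HFD to -0.034, both short of the threshold before and after. Snai1 in HFD + EC359 against LFD, which lay at 0.005, was -0.0037 with RLE factors, -0.018 by DESeq2, 0.35 with the trend removed (edgeR adjusted p = 0.0002484), and -0.085 to 0.16 with each library left out. Cdh2 in the same comparison ran from -0.17 to 1.58 with each library left out. The cause of these turns was not tested. Of the other values of single genes, the stricter threshold aside, 508 kept direction and side, 14 passed the threshold only under an alternative and 16 no longer passed it.

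Deviations from the group mean had correlations of -0.044 to 0.168 between same-numbered libraries and of -0.177 to 0.136 between the others. With 3 libraries in each group, these values cannot decide whether the numbers pair the samples. With a replicate block, 6, 4 and 6 of the 10 genes and 6943, 3549 and 7772 of all genes passed. With the block and the trend removed, 6, 4 and 5 of the 10 passed, Twist2 in HFD against LFD was at 0.081, and Zeb2 in HFD + EC359 against HFD at -0.034. Depth limits Cdh2, Snai2 and Cdh3 in HFD, with 17 or fewer counts per library.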
